A study of Mus musculus with 12 samples.

Results

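Kruppel-like factors are transcription factors whose carboxy-terminal zinc fingers bind GC-rich DNA such as CACCC and GC boxes. Their differing amino-terminal parts recruit coactivators or corepressors, so that some members mainly activate and others mainly repress their targets. In lymphocytes and endothelium Klf2 is known for keeping cells quiescent and for controlling trafficking receptors, and in myeloid cells Klf2 and Klf4 are known for restraining and directing inflammatory activation. The 7 factors described here are Klf2, Klf3, Klf4, Klf6, Klf9, Klf10 and Klf13, taken as every probe set that the platform annotation assigned to 1 of these symbols. They were 7 of 8251 named genes and had 12 of the 12422 probe sets that were not controls. The family was chosen by measured values in part, namely the change of Klf2 intensity between fresh and cultured cells, which was known when the members were listed. Differences between cultured and fresh cells are therefore given for the family as a description, with no p-value and with counts of calls from which nothing is read, whereas differences between the sorted subsets are tested.

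The arrays measured total RNA of mouse splenic dendritic cells sorted for a high level of CD11c, the integrin that marks this lineage. The sort separated CD4+ cells, CD8+ cells and cells negative for both (double-negative, DN). RNA came either from cells taken directly after sorting (fresh) or from cells kept for 2 h in tissue culture medium at 37 °C (cultured), which gave 6 groups of 2 arrays. No gene was altered and no agent was added per the labels, which do not give the strain, age or number of the mice or say whether the replicates came from separate animals. All p-values therefore describe only the variation among these arrays, and that variation may be technical.

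Itgax, which encodes CD11c, had intensities of 874.5 to 3209.8 on the 12 arrays. Of 10 listed dendritic cell markers, 4 rose and 4 fell with culture (limma, adjusted p under 0.05), against 16.1% and 24.3% of 4735 genes. H2-Ab1 rose from 5076.6 to 8085.5 on fresh to 10563.2 to 18481.0 on cultured arrays. Flt3 fell from 1616.8 to 3103.4 to 613.1 to 1932.0. Ciita was uneven between the fresh CD8+ arrays, at 256.2 and 1216.3. Cd8a had 679.4 to 1675.2 on the 4 CD8+ arrays and -17.9 to 36.1 on the other 8. Cd4 had 612.8 and 617.3 in fresh and 112.2 and 270.9 in cultured CD4+ cells, against -27.6 to 105.6 elsewhere. A description of fresh CD8+ replicate 1 calls its cells CD4 positive while its title and source call them CD8+, and its Cd8a intensity of 1210.4 and Cd4 intensity of 92.0 go with CD8+. In sorted bulk RNA, fewer cells that express a gene and less RNA per cell cannot be told apart.

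Intensities are Average Difference values, which can lie below 0. The detection floor was 91.37, or 2 times the typical noise of the negative values. That noise ran from 26.2 to 50.5 on fresh and from 42.3 to 107.9 on cultured arrays. It was highest on cultured CD4+ replicate 1 (107.9, more than the floor itself) and cultured DN replicate 1 (82.5). Dim and negative values on these arrays are therefore less certain than elsewhere. Log2 differences are on a generalised log2 scale that stays defined below 0, and folds compare group means taken on that scale, so they differ somewhat from ratios of the linear means. Of the 12 probe sets of the family, 9 were above the floor on at least 2 arrays and were tested, and these covered 6 of the 7 factors. Both probe sets of Klf9, a factor induced by glucocorticoids and thyroid hormone, stayed at or below the floor on all 12 arrays, at 14.7 to 86.3 and -35.5 to 10.5. A second Klf4 probe set, 161185_i_at, also never passed the floor.

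Promoter sequences are shown for Klf2, Klf4 and Klf3, the factors with a probe set on which all 6 cultured arrays lay below all 6 fresh arrays. For Klf3 this held on 1 of 2 tested probe sets. Each is the 250 bases before the transcription start in RefSeq (GRCm38.p6), read 5′ to 3′ on the gene's strand. Capitals mark CACCC boxes (CACCC on either strand, hence also GGGTG), which members of the family bind, and, in Klf2, a MEF2 box, the element through which the kinase ERK5 and MEF2 factors are known to drive Klf2. The Klf2 stretch is chr8:72318812-72319061 (plus strand), the Klf4 stretch chr4:55532476-55532725 (minus strand) and the Klf3 stretch chr5:64803271-64803520 (plus strand).
Klf2: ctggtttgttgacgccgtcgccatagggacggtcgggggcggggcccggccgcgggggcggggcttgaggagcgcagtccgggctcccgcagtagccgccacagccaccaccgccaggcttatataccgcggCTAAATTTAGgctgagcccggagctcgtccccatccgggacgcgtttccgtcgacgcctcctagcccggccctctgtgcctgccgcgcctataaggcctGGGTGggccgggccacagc
Klf4: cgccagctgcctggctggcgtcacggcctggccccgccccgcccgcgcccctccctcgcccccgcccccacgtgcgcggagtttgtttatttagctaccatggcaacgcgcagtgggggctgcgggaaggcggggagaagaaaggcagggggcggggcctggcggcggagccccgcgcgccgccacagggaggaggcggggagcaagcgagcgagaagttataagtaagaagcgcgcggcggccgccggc
Klf3: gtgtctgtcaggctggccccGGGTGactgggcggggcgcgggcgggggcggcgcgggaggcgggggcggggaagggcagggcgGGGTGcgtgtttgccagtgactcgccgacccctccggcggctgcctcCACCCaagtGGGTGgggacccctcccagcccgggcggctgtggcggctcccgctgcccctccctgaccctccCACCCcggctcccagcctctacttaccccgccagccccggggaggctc

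RefSeq promoters were matched for 6 of the 7 factors, all but Klf10. A MEF2 box was found in 1 of these 6, at bases -118 to -109 of Klf2, and in 0.508% of the 32851 mouse promoters of the same length. The CACCC box occurred in 4 of the 6 (Klf2, Klf3, Klf9 and Klf13) and in 52% of all promoters, and Klf3 held 5 copies. The GC box (GGGCGG on either strand) was found in 5 of the 6 and in 32.7% of all promoters. A CArG box, the binding element of serum response factor, and a cAMP response element (TGACGTCA) were found in 0 of the 6, against 1.47% and 1.55% of all promoters. An AP-1 site (TGANTCA) was found in Klf9 only, against 6.75% of all promoters. In Klf9 it overlaps the CACCC box. These letter matches are descriptions, and no binding was measured.

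Klf2 was high in all fresh dendritic cells and not well above background in any cultured sample. In fresh CD8+ cells its intensities were 1840.8 and 1272.9, in fresh DN cells 553.2 and 1245.6, and in fresh CD4+ cells 405.3 and 682.4. After culture they were -63.9 and -55.2 in CD8+ cells, -139.7 and 44.6 in DN cells, and 15.0 and 88.4 in CD4+ cells. The lowest fresh array thus lay above the highest cultured one, and all 6 cultured values were under the floor. Klf2 was at least 15.8-fold higher in fresh than in cultured CD8+ cells, at least 8.59-fold higher in DN cells and at least 5.45-fold higher in CD4+ cells, taking the floor as the cultured level.

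The fitted log2 changes of Klf2 with culture were -7.62 ± 1.00 in CD8+ cells, -5.89 ± 1.00 in DN cells and -3.28 ± 1.00 in CD4+ cells (SE, n = 2 arrays per group). Values below 0 inflate these, and with every value raised to the floor the mean over the subsets was -3.26 in place of -5.59 ± 0.58. Ordered from the largest fall among 6159 probe sets, Klf2 stood at place 1 in CD8+ cells, 5 in DN cells and 106 in CD4+ cells, and at 1, 4 and 36 with the hard floor. The change in CD8+ cells differed from that in CD4+ cells by -4.35 ± 1.41, a difference that also rests on values below 0.

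Klf4, a factor that promotes monocyte and macrophage differentiation, fell with Klf2 but stayed measurable in most cultured samples. Its fresh intensities were 815.0 and 911.3 in CD4+ cells, 908.0 and 662.0 in CD8+ cells, and 1261.5 and 1588.8 in DN cells. Cultured cells gave 423.6 and 359.3 (CD4+), 66.4 and 117.7 (CD8+) and 311.1 and 485.2 (DN). Both arrays of each cultured subset were lower than all 6 fresh arrays, and cultured CD8+ cells were the lowest, with 1 of their 2 arrays under the floor. The fresh level was 8.2-fold the cultured one in CD8+ cells, 3.63-fold in DN cells and 2.2-fold in CD4+ cells, with log2 changes of -3.03, -1.86 and -1.14 (each ± 0.34, SE).

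Klf6, a widely expressed activator that responds to injury and inflammatory signals, did not share this pattern. Its fresh intensities were 842.5 and 1037.3 in CD4+ cells, 938.3 and 1775.5 in CD8+ cells, and 976.4 and 893.0 in DN cells. After culture they were 1601.0 and 1399.6, 2058.2 and 1120.0, and 1776.7 and 743.4 in the same order. Fresh and cultured arrays overlapped in CD8+ and DN cells, while both cultured CD4+ arrays were above both fresh ones. The log2 changes were 0.68 in CD4+, 0.23 in CD8+ and 0.30 in DN cells (each ± 0.44, SE).

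**Figure D1:**
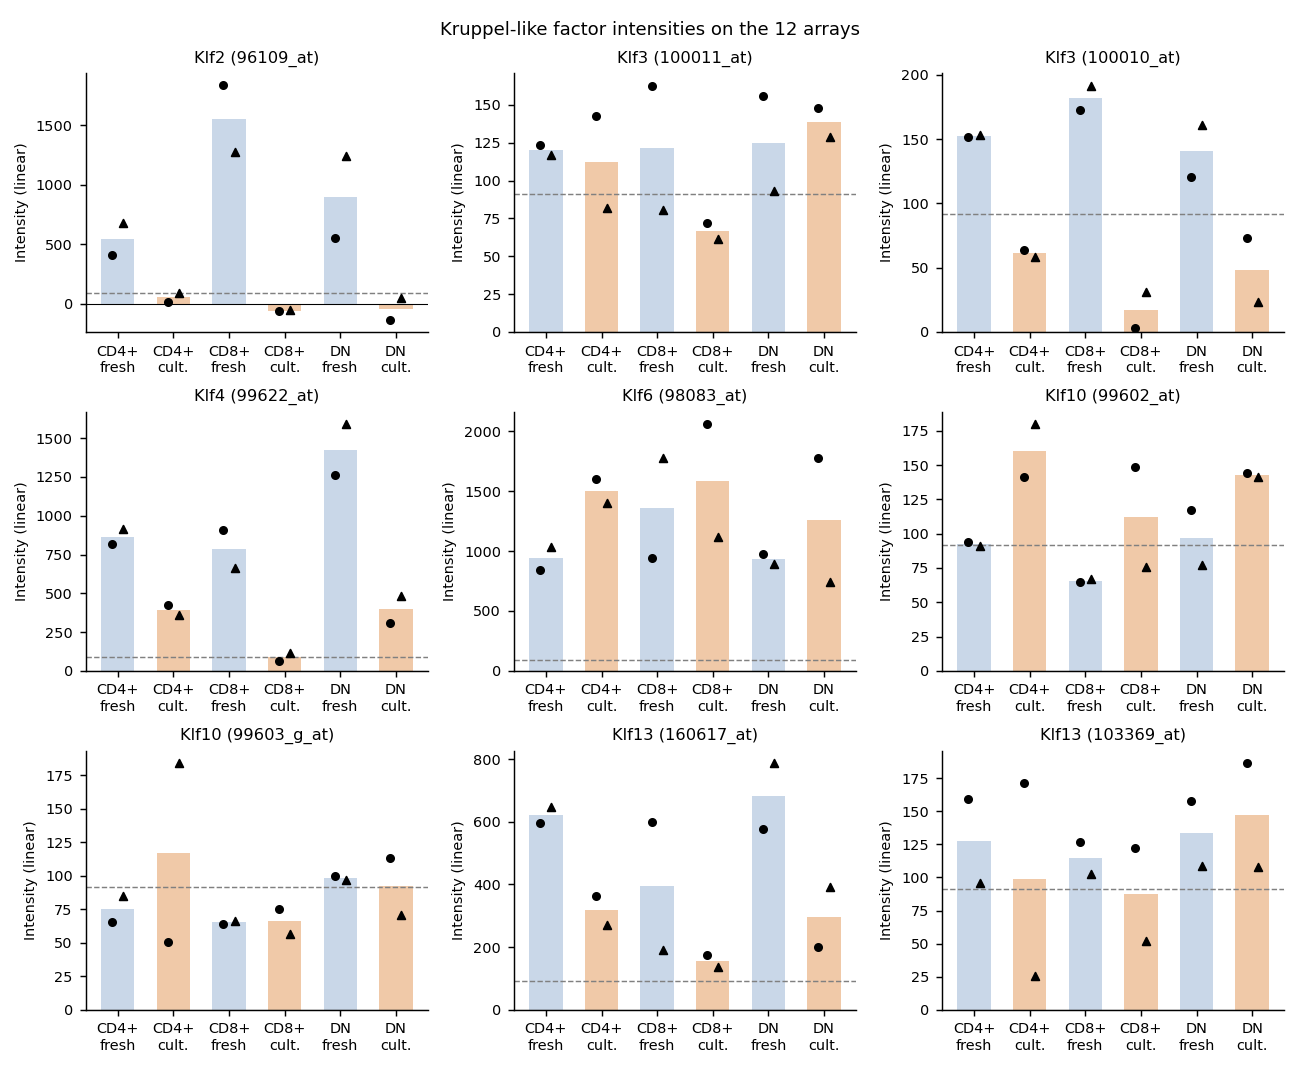
Intensity (linear scale) of the 9 tested probe sets, covering 6 factors, by sorted subset and state; bars are means of the 2 arrays, circles replicate 1, triangles replicate 2, and the dashed line is the detection floor of 91.37. Klf2, Klf4 and the Klf3 probe set 100010_at are lower on every cultured than on every fresh array, whereas Klf6 arrays of both states overlap.

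Klf3 is a repressor that binds the corepressor CtBP, and its 2 tested probe sets differed. On 100010_at the fresh intensities were 151.4 and 152.8 (CD4+), 172.9 and 191.6 (CD8+) and 120.4 and 161.0 (DN), and all 6 cultured values, from 3.2 to 73.2, were under the floor. This probe set was at least 1.91-fold higher in fresh than in cultured CD8+ cells, at least 1.61-fold higher in CD4+ cells and at least 1.48-fold higher in DN cells. On 100011_at fresh arrays ran from 80.4 to 162.7 and cultured arrays from 61.2 to 147.8, so the states overlapped. The mean log2 culture changes were -1.69 ± 0.27 and -0.22 ± 0.25 (SE), so a fall of Klf3 rests on 1 of the 2 probe sets.

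Klf9, Klf10 and Klf13 belong to the branch that binds the corepressor SIN3A. Klf13, which in T cells is known to drive the chemokine gene Ccl5, had fresh intensities on 160617_at of 595.3 and 648.2 (CD4+), 599.6 and 191.3 (CD8+) and 577.3 and 786.9 (DN). The cultured values were 362.5 and 271.7, 173.7 and 135.8, and 199.7 and 393.0. Within each subset both cultured arrays were lower than both fresh ones, but fresh CD8+ replicate 2 lay within the cultured range. The mean log2 change was -1.12 ± 0.29 (SE), and it was -0.32 ± 0.38 on the dimmer probe set 103369_at, where fresh arrays (95.6 to 159.2) and cultured arrays (25.7 to 186.4) overlapped.

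Klf10, an early gene induced by TGF-beta, was dim in all groups. On 99602_at the fresh arrays gave 93.6 and 91.3 (CD4+), 64.6 and 66.6 (CD8+) and 117.0 and 77.0 (DN). The cultured arrays gave 141.4 and 179.6, 148.9 and 75.7, and 144.2 and 141.0. In each subset both cultured arrays were above both fresh ones, although the ranges over all 12 arrays overlapped. The mean log2 change was 0.63 ± 0.23 (SE), against 0.09 ± 0.30 on 99603_g_at, whose arrays overlapped between states in every subset and passed the floor on 4 of 12 arrays.

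**Figure D2:**
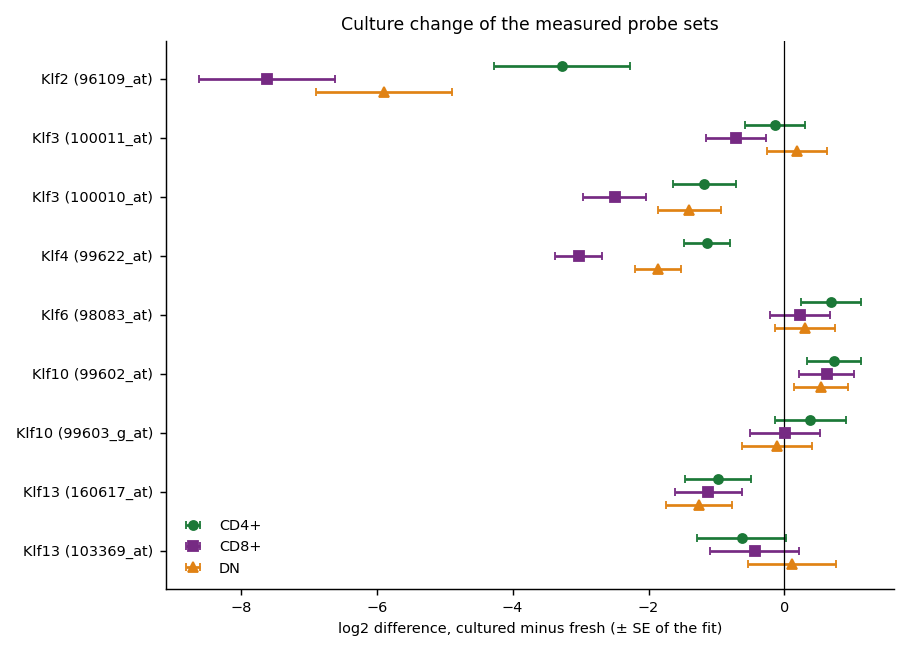
Log2 difference of cultured minus fresh cells (generalised log2 scale) for the 9 tested probe sets in CD4+ (circles), CD8+ (squares) and DN cells (triangles); bars are the SE of the fit. The Klf2 and Klf4 changes are lowest in CD8+ cells, at -7.62 and -3.03, and the probe sets of Klf3, Klf10 and Klf13 differ within a gene.

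Within a subset, both cultured arrays lay below both fresh arrays for 5 of the family's 12 probe sets in CD4+ cells (29.2% of all probe sets), 5 in CD8+ cells (25.6%) and 4 in DN cells (29.7%). Over all subsets, 3 of the family's 12 probe sets had every cultured array below every fresh array, against 6.5% of all probe sets, and 0 had every cultured array above, against 4.35%. In the fit, 2 of 9 passed an adjusted p of 0.05 as lower in cultured CD4+ cells (10.9% of all probe sets), 3 in CD8+ cells (4.12%) and 2 in DN cells (5.7%). For the mean of the subsets 4 were lower (22.3%) and 1, Klf10, was higher (17%). Since the choice of the family used this contrast, nothing is read from these counts.

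Markers of other cell types were present to differing degrees, and some moved with culture as Klf2 did. T cells also express Klf2, and 9 T cell markers summed to 120.3 to 320.1 on fresh and 140.7 to 423.1 on cultured arrays. By the probe set of highest mean, 7 of these 9 were not above the floor on any array, Cd3e, Cd3d and Cd3g among them. Sums and floor counts of the marker lists below are taken in the same way. A gene was tested if any of its probe sets passed the filter, which held for 3 of the 9. At least 1 of the 7 thus had another probe set above the floor on at least 2 arrays. Of the 3 tested 0 rose and 0 fell with culture. The 9 B cell markers summed to 2753.7 to 5254.8 on fresh and 1535.8 to 4092.8 on cultured arrays, and only Cr2 was never above the floor. Of 8 tested, 3 fell and 2 rose with culture, against 24.3% and 16.1% of 4735 genes taken by their brightest probe set.

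Cd22, a B cell inhibitory receptor, had fresh means of 538 ± 36.8 in CD4+, 664 ± 281 in DN and 6.0 ± 12.4 in CD8+ cells (SD, n = 2). All its cultured values lay below 0, from -106.3 to -25.5 (limma, adjusted p = 1.66e-05 for the mean culture change). It was thus under the floor in fresh CD8+ cells, where Klf2 had its highest mean. The B cell markers together did not share this order. They summed to 4206.0 to 4678.1 in fresh CD8+, 4495.7 to 5254.8 in fresh CD4+ and 2753.7 to 3412.6 in fresh DN cells. Cd79b, a chain of the B cell receptor, fell by 1.02 ± 0.31 on the log2 scale (limma, adjusted p = 0.0224), a call lost when any of 4 single arrays was left out (0.0509 to 0.0649), while Blk, a kinase of B cells, rose by 1.12 ± 0.30 (limma, adjusted p = 0.014).

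The 12 monocyte, macrophage and neutrophil markers summed to 1522.2 to 2587.0 on fresh and 926.4 to 3103.0 on cultured arrays, with 4 of them, Mrc1, S100a9, Mpo and Ngp, never above the floor. Of 7 tested, 3 fell and 1 rose, against 24.3% and 16.1% of 4735 genes. Csf1r, the receptor for macrophage colony-stimulating factor, changed by -1.34 ± 0.24, Lyz2, a lysozyme, by -1.35 ± 0.25 and Cd14, a coreceptor for lipopolysaccharide, by 2.62 ± 0.33 (limma, adjusted p = 0.00137, 0.0018 and 0.000163). The 7 NK cell markers summed to 244.5 to 1261.4 and 316.3 to 1208.1, with Ncr1, Gzmb, Prf1 and Il2rb never above the floor. Of 2 tested, 1 rose and 0 fell, against 16.1% and 24.3% of 4735 genes. Klrk1 was the rise, by 0.94 ± 0.30 (limma, adjusted p = 0.0309), a call lost in 9 alternative settings. Klrd1 was lower in cultured CD8+ than in cultured DN cells by -2.48 ± 0.45 on the log2 scale (limma, adjusted p = 0.0235), as was Klf4. This Klrd1 call was lost without any of 3 single arrays. The difference was then -2.32 or -2.63 (without cultured CD8+ replicate 1 or 2) or -1.98 (without cultured DN replicate 2). In fresh cells Klrd1 means were 221 ± 136 in CD8+ and 1028 ± 114 in DN cells (SD, n = 2). Klf4 did not pass between these fresh groups (limma, adjusted p = 0.401).

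The 9 endothelial and stromal markers summed to 204.0 to 608.2 on fresh and 160.5 to 347.5 on cultured arrays, with 5 of them, Cdh5 and Tek included, never above the floor. Of 3 tested, 2 fell and 0 rose, against 24.3% and 16.1% of 4735 genes. The falls were Vwf and Pecam1, with log2 changes of -1.62 ± 0.42 and -0.87 ± 0.28 (limma, adjusted p = 0.0109 and 0.0313). With the hard floor both calls were lost (0.102 and 0.223), and that of Pecam1 also in 7 other settings. The part of other cell types in the culture and subset differences of the family was not tested.

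The subset comparisons asked whether the factors separate CD4+, CD8+ and DN cells. In fresh cells 0 of 9 probe sets passed for CD8+ against CD4+ cells (1.98% of all probe sets passed), for CD8+ against DN cells (1.43%) or for DN against CD4+ cells (0%; by limma 81 of 6159 had an unadjusted p under 0.05). The highest and lowest fresh means of Klf2, 1557 ± 402 in CD8+ and 544 ± 196 in CD4+ cells (SD, n = 2), were 2.91-fold apart on the log scale (limma, adjusted p = 0.71). CD8+ and DN cells, 1.84-fold apart on that scale, did not pass (limma, adjusted p = 0.962), nor did DN and CD4+ cells at 1.58-fold (limma, adjusted p = 1.0). These tests use a spread pooled over all 6 groups, which for Klf2 includes cultured values below 0. They therefore do not measure the scatter of the fresh arrays alone and are weak for Klf2. Fitted on the groups compared alone, 0 probe sets of the family passed in any fresh comparison. Klf4 had its highest fresh mean in DN cells, 1425 ± 231, against 785 ± 174 in CD8+ cells (SD, n = 2; limma, adjusted p = 0.401). Its fresh CD8+ and CD4+ cells differed by -0.15 ± 0.34 on the log2 scale (limma, adjusted p = 0.97). For both factors the fresh DN mean lay above the CD4+ mean.

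Klf13 (160617_at) was 395.5 ± 288.7 in fresh CD8+ cells, 622 ± 37.4 in CD4+ and 682 ± 148 in DN cells (SD, n = 2), which did not pass either (limma, adjusted p = 0.619 and 0.594). The 2 fresh CD8+ arrays, at 599.6 and 191.3, differed more than any other pair of replicates on this Klf13 probe set. As a measure of RNA integrity, the Gapdh signal at the 3' end was divided by that at the 5' end. This gave 2.55 for fresh CD8+ replicate 1, 1.97 for cultured CD4+ replicate 1 and 1.34 for cultured DN replicate 1. The remaining 9 arrays had 0.89 to 1.04. The same ratio for actin did not set the same arrays apart. It was highest for cultured CD4+ replicate 2, at 1.28. It was 0.91, 1.16 and 0.92, in the order above, on the 3 arrays with a raised Gapdh ratio. Without these 3 arrays, which leaves 1 array in each of these groups and takes it to vary like the others, Klf13 was lower in fresh CD8+ than in CD4+ cells by -1.68 and than in DN cells by -1.80 on the log2 scale (limma, adjusted p = 0.0181 and 0.0147). The part of RNA quality in the result was not tested.

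In cultured cells Klf4 set the CD8+ subset apart. Its mean was 92.1 ± 36.3 in CD8+ cells, against 391.5 ± 45.5 in CD4+ and 398.2 ± 123.1 in DN cells (SD, n = 2), and both CD8+ arrays lay below the other 4. It was 4.13-fold lower in CD8+ than in CD4+ cells (log2 -2.05 ± 0.34, limma, adjusted p = 0.0133) and 4.12-fold lower than in DN cells (-2.04 ± 0.34, adjusted p = 0.0178), while CD4+ and DN cells were level (-0.01 ± 0.34, adjusted p = 0.999). It was 1 of 9 probe sets of the family in each comparison, against 2.29% and 1.3% of all probe sets. For cultured DN against CD4+ cells 0 of 9 passed, as did 0% of all (by limma 235 of 6159 had an unadjusted p under 0.05).

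With 2 arrays a group the Klf4 calls depended on single arrays. Leaving out cultured CD8+ replicate 1 gave adjusted p = 0.132 against CD4+ and 0.187 against DN cells (limma). Against DN cells the limma adjusted p was 0.053 without cultured CD8+ replicate 2 and 0.134 without cultured DN replicate 2. Fitted on the groups compared alone the limma adjusted p values were 0.202 and 0.0925.

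In that state Klf2 was under the floor in every subset, so that no fold can be given. Its fitted difference between cultured CD8+ and CD4+ cells was -2.81 ± 1.00 (limma, adjusted p = 0.208). The difference passed when cultured DN replicate 1 or 2 was left out (limma, adjusted p = 0.0368 and 0.039) and when the 3 arrays with a raised Gapdh ratio were dropped (adjusted p = 0.00264), but it separates values that are all below the floor. Of the other factors, none passed between cultured subsets, with the lowest adjusted p at 0.301 for Klf3 100010_at in CD8+ against CD4+ cells (limma).

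The culture changes of Klf4 in CD8+ and CD4+ cells differed by -1.90 ± 0.48 (SE), and those of CD8+ and DN cells by -1.17 ± 0.48. Over the whole table limma called 0 of 6159 probe sets for a difference in culture change between CD8+ and CD4+ cells, with 525 at an unadjusted p under 0.05. In alternative settings this count was 0 to 7, and 162 without cultured CD4+ replicate 2.

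Klf2 and Klf4 were high together on fresh and low together on cultured arrays. The order of their fresh means differed, but no fresh subset difference of either passed. Across the 12 arrays Pearson's r was 0.85, which the 2 states largely share, and within the 6 fresh arrays it was 0.012 and within the 6 cultured ones 0.60. All 6 cultured Klf2 values lay under the floor, so the r of 0.60 sets Klf4 against background values of Klf2. The arrays fall into the 2 states, so these are descriptions with no p. Fresh CD8+ cells had the highest Klf2 and the lowest Klf4 mean.

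**Figure D3:**
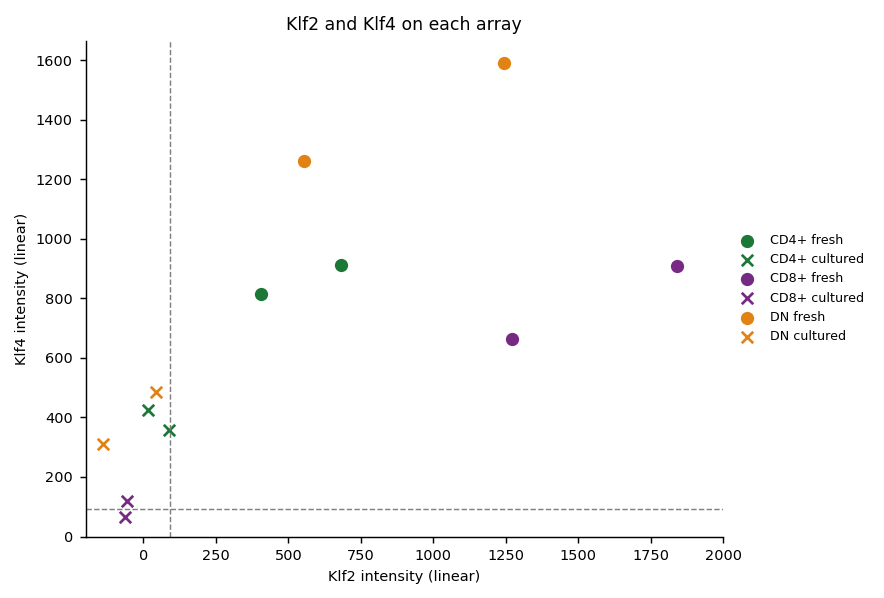
Klf4 against Klf2 intensity (both linear) on each of the 12 arrays, coloured by subset, with circles for fresh and crosses for cultured cells; dashed lines mark the floor of 91.37. Fresh and cultured arrays form separate clusters, and within the fresh cluster the DN arrays are highest for Klf4 (1261.5 and 1588.8) and a CD8+ array is highest for Klf2 (1840.8).

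By correlation over the same 12 arrays, the genes whose pattern was most like that of Klf2 were Nek7 (r = 0.962), Sumo3 (0.954), Ormdl1 (0.947), Kif23 (0.943) and Sipa1 (0.942). Kif23 encodes a kinesin of cytokinesis, and its fresh arrays gave 418.2 to 685.6 and its cultured arrays 48.8 to 136.7. Sipa1 encodes a GTPase-activating protein for Rap1, with 229.9 to 404.5 against -28.2 to 103.4. The most opposite were Acod1 (r = -0.967), Socs3 (-0.965) and Sema7a (-0.958). Acod1, which makes itaconate in activated macrophages, ran from 8.1 to 35.6 on fresh and from 85.4 to 478.7 on cultured arrays. Within the family, Klf4 stood at place 192 of 5505 named probe sets by this likeness, Klf3 at 240 on 100010_at and 2263 on 100011_at, and Klf13 at 695 on 160617_at and 2837 on 103369_at. Klf10 stood at 2956 on 99603_g_at and 4616 on 99602_at, and Klf6 at 4224, and the last 2 probe sets ran against Klf2 (r = -0.61 and -0.498).

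Of other Kruppel-like and Sp factors, 8 of a list of 19 were on the array and 4 passed the filter. With culture 1 of these 4 rose and 0 fell, against 16.1% and 24.3% of 4735 genes, taking each gene by its brightest probe set. Klf17 rose by 1.09 ± 0.35 (SE; limma, adjusted p = 0.0322) on dim values of 0.9 to 56.4 in fresh and 44.0 to 146.9 in cultured cells. That call was lost in 10 of 21 alternative settings, with 0.15 and an adjusted p of 0.304 under the hard floor and 0.86 and 0.102 without cultured DN replicate 1. Klf1, the erythroid factor, was at 217.4 to 337.8 in fresh and 290.6 to 461.8 in cultured cells (0.47 ± 0.20; limma, adjusted p = 0.0812).

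Of 15 listed kinases, MEF2 and FOXO factors and ubiquitin ligases known to act on Klf2, 11 were on the array and 9 were tested. With culture 5 of the 9 fell and 0 rose, against 24.3% and 16.1% of all genes, with a median log2 change of -0.65 against -0.06 over all genes. Map3k2, a kinase that also acts on the ERK5 cascade, was not above the floor on any array, and Akt1 had a difference of -0.19 ± 0.18 (limma, adjusted p = 0.403). Mapk7, which encodes ERK5, gave 75.6 to 210.6 on fresh and -170.9 to 27.1 on cultured arrays, at least 1.43-fold higher when fresh (limma, adjusted p = 0.000735). Map3k3, a kinase at the head of the cascade that leads to ERK5, fell from 162.1 to 590.1 on fresh arrays to 45.0 to 257.3 on cultured ones (log2 -1.48 ± 0.27, limma, adjusted p = 0.00161). Map2k5, which encodes MEK5, the direct activator of ERK5, fell from 93.9 to 218.2 to 39.1 to 116.3 (-1.18 ± 0.26, limma, adjusted p = 0.00469).

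The other falls were Foxo3, a FOXO factor (-1.15 ± 0.31; limma, adjusted p = 0.0136), and Mef2d (-0.65 ± 0.19; limma, adjusted p = 0.0194). Mef2d missed the threshold without fresh CD4+ replicate 2 (limma, adjusted p = 0.06), without cultured CD8+ replicate 1 (0.0621) and when the 3 arrays with a raised Gapdh ratio were dropped (-0.46, adjusted p = 0.0798). The Mef2a, Mef2b and Mef2c differences were -0.34 ± 0.26, 0.82 ± 0.32 and -0.06 ± 0.26 (limma, adjusted p = 0.321, 0.0591 and 0.856). Each is from the brightest probe set of its gene. On the other tested Mef2c probe sets, cultured CD4+ means were 65.2 against 288 in fresh cells, and 51.8 against 170. In DN cells they were 43.4 against 180, and 89.0 against 95.3. In CD8+ cells these means were under the floor in both states. The Mef2c change thus differed between its probe sets. The other Mef2b probe set was negative on every array. Foxo3 and Mef2d were named after their values were seen.

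Of 16 listed genes that Klf2 is known to act on in T cells, endothelium or macrophages, 13 were on the array and 7 were tested. With culture 2 of the 7 rose and 2 fell, against 16.1% and 24.3% of all genes, and the median log2 change was -0.02 against -0.06 over all genes. Il7r, which encodes the interleukin-7 receptor alpha chain, rose from 19.3 to 86.1 on fresh arrays to 105.0 to 767.7 on cultured ones, at least 3.27-fold (limma, adjusted p = 9.79e-05). Nr4a1, an orphan nuclear receptor, fell by 0.86 ± 0.21 on the log2 scale (limma, adjusted p = 0.00873), and Itgb7, an integrin chain used in gut homing, fell by 0.70 ± 0.17 (limma, adjusted p = 0.00933). The other rise, Hif1a (0.49 ± 0.18, adjusted p = 0.0471), missed the threshold in 14 alternative settings. The trafficking receptor gene S1pr1 and the endothelial genes Thbd and Nos3 were not above the floor on any array.

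Between subsets, Cxcr3, a chemokine receptor that Klf2 restrains in T cells, had 204.6 and 297.9 in fresh CD8+ and 64.5 and 45.9 in fresh CD4+ cells. It was higher by 1.98 ± 0.37 on the log2 scale (limma, adjusted p = 0.0183), a call lost when any 1 of these 4 arrays was left out (0.0506 to 0.227). Il7r in cultured cells was lower in CD8+ (105.0 and 116.8) than in CD4+ cells (412.5 and 767.7; -2.29 ± 0.49, limma, adjusted p = 0.0365), which was lost in 13 of the alternative settings, up to 0.225 without cultured CD8+ replicate 1.

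Of 8 tested genes acted on by Klf4 or Klf6, 3 rose and 4 fell with culture, against 16.1% and 24.3% of all genes (median log2 change -0.36 against -0.06). Odc1, which makes polyamines and which Klf4 represses, rose from 139.0 to 321.0 to 894.5 to 1845.1 (2.64 ± 0.14; limma, adjusted p = 5.18e-07). Cdkn1a, the cell cycle inhibitor p21, which both Klf4 and Klf6 induce, rose from 52.0 to 156.7 to 815.3 to 2255.9 (3.87 ± 0.22, limma, adjusted p = 7.27e-07). Ccnd1, encoding cyclin D1, fell by 1.07 ± 0.17 (limma, adjusted p = 0.0007), and in fresh cells it was lower in CD8+ (627 ± 221) than in CD4+ cells (2456 ± 6.65, SD, n = 2; limma, adjusted p = 0.00426). The fresh difference missed the threshold without fresh CD4+ replicate 1 or 2 (0.0616 and 0.0596). Eng, encoding the TGF-beta coreceptor endoglin, was higher in cultured CD8+ (107 ± 8.7) than in CD4+ cells (-32.5 ± 40.7; limma, adjusted p = 0.0172), but with all values raised to the floor the adjusted p was 0.813.

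Around Klf10, 3 of 9 tested genes of TGF-beta signalling rose and 3 fell with culture, against 16.1% and 24.3% of all genes (median log2 change 0.45 against -0.06). Tgif1, a corepressor of SMAD proteins, rose by 2.22 ± 0.19 (limma, adjusted p = 1.46e-05), and Skil, which encodes the SMAD corepressor SnoN, was at least 1.43-fold higher (limma, adjusted p = 0.00708). Tgfb1, the ligand, fell by 0.97 ± 0.18 (limma, adjusted p = 0.00173). Around Klf9, 2 of 7 tested glucocorticoid-induced genes rose and 3 fell, against the same shares of 16.1% and 24.3% (median 0.06). Il1r2, the decoy receptor for interleukin-1, rose by 4.54 ± 0.24 and Nfkbia by 1.59 ± 0.24 (limma, adjusted p = 5.18e-07 and 0.000556), while Fkbp5, a classical glucocorticoid target, was at least 1.06-fold lower (limma, adjusted p = 0.00587). In cultured cells Il1r2 was 600 ± 15.6 in CD8+ and 6785 ± 242 in CD4+ cells (SD, n = 2; limma, adjusted p = 0.00143).

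Of the cofactors that the family binds, 10 of 14 were tested, of which 3 fell and 1 rose with culture, close to the 24.3% and 16.1% of all genes (median log2 change -0.39 against -0.06). Kat2b, the acetyltransferase PCAF, fell by 1.59 ± 0.26 (limma, adjusted p = 0.000807) and Hdac2, a histone deacetylase, by 0.73 ± 0.19 (limma, adjusted p = 0.0131). Ctbp1, the corepressor bound by Klf3, fell by 0.56 ± 0.16 (limma, adjusted p = 0.0185), a call lost when any of 4 single arrays was left out (0.0561 to 0.0659). Sin3b was the rise (0.48 ± 0.17, adjusted p = 0.0493), which missed the threshold in 16 alternative settings. Sin3a had a difference of -0.47 ± 0.18 (limma, adjusted p = 0.061).

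**Figure D4:**
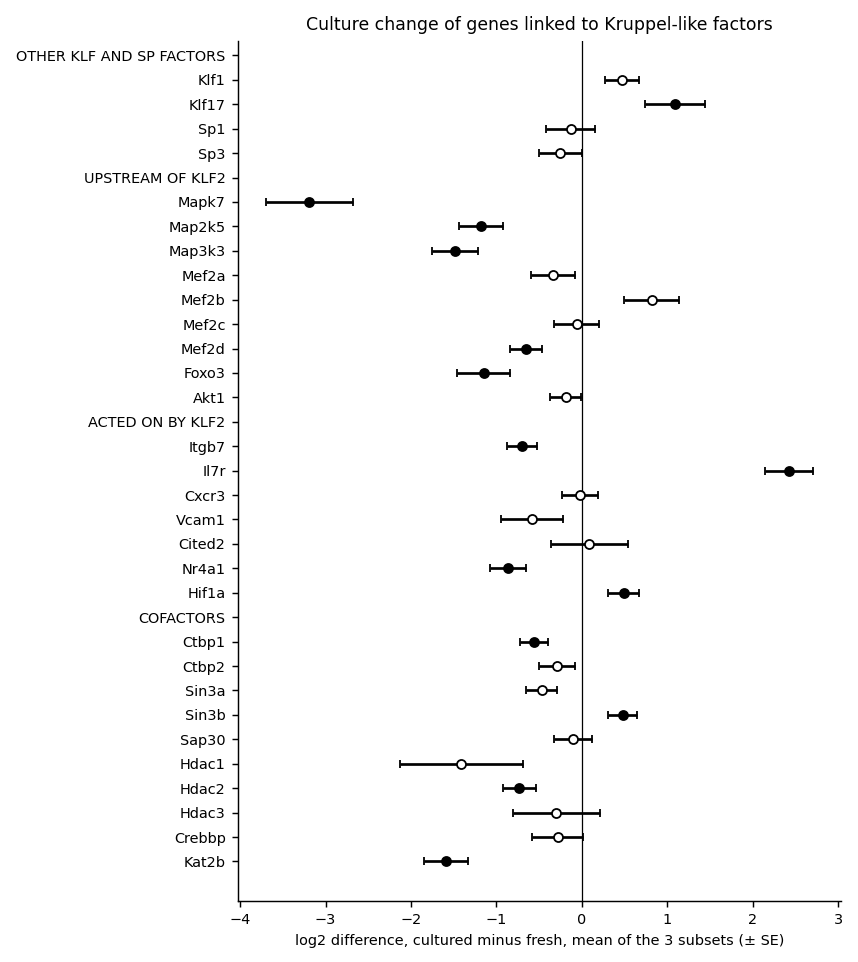
Mean log2 difference of cultured minus fresh cells over the 3 subsets (generalised log2 scale, bars are SE) for genes linked to Kruppel-like factors; filled points have an adjusted p under 0.05 (limma). Of the 9 genes upstream of Klf2, 5 are filled to the left of 0 and 0 to the right; the Mapk7 point rests on cultured values below the floor.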

How the data were processed

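Each deposited intensity is an Average Difference, globally scaled by the authors per the labels. Their software is not given in the sources used here. Values of 12488 probe sets on 12 arrays were read, and 66 controls were left out. Platform annotation gave 10833 probe sets 1 symbol, and no symbol changed when it was looked up in RefSeq by its gene identifier. The members and gene lists were chosen with earlier results of these data known.

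Intensities x were transformed to log2((x + sqrt(x² + c²)) / 2) with c = 45.69, taken per array as the root mean square of all values under 0 and then as the median of the 12 arrays. Differences of dim probe sets are understated on this scale, while values below 0 can inflate them. Probe sets above the floor of 91.37 on at least 2 arrays were tested (6159). limma 3.58.1 in R 4.3.3 fitted 1 mean per group over all 12 arrays (residual degrees of freedom 6, prior degrees of freedom 5.09 at the median), with an intensity trend, robust estimation and Benjamini-Hochberg adjustment over the 6159. The fit was tested on simulated data. Calls were made at an adjusted p of 0.05. A gene at or under the floor on every array of a group is given as a lower bound of the fold ("at least"), which sets the mean of the bright group against the higher of the floor and its own value on each array of the dim group. For genes outside the family this was done over all arrays of a state. The precision is limited by the 2 arrays per group. Rank correlations between replicates were 0.745 (cultured CD4+) to 0.94 (fresh CD4+).

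Named genes were all members, the 5 most and 3 least like Klf2, and genes of each list. The rule for lists was up to 3 genes of lowest p in the mean culture change and up to 2 over the subset comparisons. Some of these are not described above. Among them is the macrophage marker Adgre1, lower in fresh CD8+ than CD4+ cells (-3.58 ± 0.76; limma, adjusted p = 0.038), a call lost in 12 alternative settings. Others, such as Akt1, Sin3a, Hif1a and Klf1, were named outside this rule. Promoters came from the RefSeq table (GRCm38.p6). No other per-sample columns were present. Alternatives were the offset, a hard floor, the filter, quantile normalization, a replicate block, the groups compared alone, the moderation, array weights, and arrays left out. Tables and figures used Python 3.11.15, numpy 2.4.6, pandas 2.3.3 and matplotlib 3.10.9.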

Additional observations from a re-analysis of the deposited data

How the results depend on the processing

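The count of family probe sets called between subsets kept its value in most alternatives. Without the 3 arrays of high Gapdh ratio it went from 0 to 1 for fresh CD8+ against CD4+ and against DN cells, and from 1 to 2 for cultured CD8+ against both. On the groups compared alone it went to 0 for both cultured comparisons, and with array weights to 0 for cultured CD8+ against CD4+ cells. Leaving out 1 array gave 0 to 2 and 0 to 1 for these. The count of probe sets with every cultured array below every fresh one ran, with 1 array left out, from 5 to 8 in CD4+, 5 to 9 in CD8+, 4 to 9 in DN and 3 to 4 over all cells, and was 9 in DN cells without the 3 arrays. Fewer arrays make a full separation easier. Differences that turned, none of them called, were Klf3 100011_at in fresh CD8+ against DN cells (0.02 with the hard floor, 0.28 without fresh DN replicate 1, and -0.53 to 0.41 with 1 array left out), Klf6 in cultured CD8+ against DN cells (-0.04 without cultured CD8+ replicate 1, and -0.23 to 1.03 with 1 array left out), Klf10 99603_g_at in cultured CD8+ against CD4+ cells (-1.36 to 0.29 with 1 array left out) and Klf13 103369_at (-0.44 to 0.06 in fresh CD8+ against DN cells and -0.26 to 1.9 in cultured DN against CD4+ cells, with 1 array left out). The cause was not tested. Over all probe sets, the 141 calls for cultured CD8+ against CD4+ cells ranged from 20 to 317 across settings and from 28 to 551 with 1 array left out.

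With the experiment number as a replicate block, Klf4 kept both cultured calls (limma, adjusted p = 0.00888 and 0.0114), and the count for CD8+ against CD4+ cells was 207. The numbers are shared between groups, but the labels do not say that they mark a batch. Replicate differences correlated at 0.106 to 0.444 over 15 pairs of groups.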
